A study of Mus musculus with 14 samples.

Results

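The 10 genes described here are G1 cyclins (Ccnd1, Ccnd2, Ccnd3 and Ccne1), the kinase gene Cdk4, the transcription factor gene E2f1 and 4 genes of CDK inhibitors (Cdkn1a, Cdkn1b, Cdkn1c and Cdkn2c). They were found by gene symbol in the platform annotation: 10 of 10 were on the array, by 15 of its 12488 probe sets. A probe set is a group of short oligonucleotides that together give 1 intensity for 1 transcript. RNA of 14 mouse mammary samples was hybridised, 1 sample per array. The tumor group held 5 mammary tumors of MMTV-neu mice (tumors 22, 24, 26, 50 and 52). In these transgenic mice the neu oncogene, an Erbb2 allele, is under the control of a viral promoter (MMTV) that is active in the epithelium of the mammary gland. A second tumor group, set B, held 2 further MMTV-neu tumors (80 and 81), which the labels describe as a check on whether changes recur. The adjacent group held 4 glands of MMTV-neu mice (23, 25, 49 and 51) that surrounded a tumor and are described as preneoplastic. The wild-type group held 3 pools without the transgene, each made of mammary gland RNA of 5 mice: pool 40 at 31 weeks on a background of 87.5% FVB and 12.5% CF-1, and pools 41 and 42 at 41 weeks on 97% FVB and 3% CF-1. The labels used here state no age or strain for the tumors and the adjacent glands. Nor do they say whether different tumors, or different adjacent glands, were taken from different mice. The spread behind each p-value is therefore that between samples and may be technical. A pool averages over its 5 mice, so wild-type values may spread less than those of single mice would. Ranges of the pools given below are ranges of such averages.

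In the G1 phase a cell commits itself to another round of division. D-type cyclins activate the kinases Cdk4 and Cdk6, cyclin E activates Cdk2, and these kinases phosphorylate the retinoblastoma protein, which releases E2F factors that switch on genes of DNA synthesis. The INK4 inhibitors, such as p18 (Cdkn2c), bind Cdk4 and Cdk6, and the Cip/Kip inhibitors p21 (Cdkn1a), p27 (Cdkn1b) and p57 (Cdkn1c) bind cyclin-CDK complexes. In the mouse mammary gland, cyclin D1 is needed for the growth of the lobules in pregnancy and for tumor formation by the neu oncogene.

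Among these genes, the D-type cyclin Ccnd1 was higher and the inhibitor Cdkn2c lower in tumors, while the means of adjacent glands lay between those of tumors and wild-type gland for both. Ccnd3 and Cdkn1c were also lower in tumors than in wild-type gland. Cdk4 and Ccne1 were called in no comparison with all arrays in the fit. Of the 10 genes, 8 passed a filter on dim signals (above the 40th percentile of the array on at least 3 arrays), by 11 probe sets. Ccnd2 and Cdkn1b did not pass and are given by their intensities. In tumors against wild-type gland, 5 of the 8 genes were called: 2 higher (Ccnd1 and E2f1) and 3 lower (Ccnd3, Cdkn1c and Cdkn2c). A gene counts as called where its adjusted p in limma was under 0.05, and the probe set of the highest mean stood for it. Over all 6397 genes tested, 30.6% were called in this comparison, 15.8% as higher and 14.7% as lower.

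Promoter sequences from RefSeq (GRCm38.p6) are shown for Cdkn2c and Cdk4. Cdkn2c was the member with the smallest adjusted p between tumors and wild-type gland. Cdk4, like Ccne1, was called in no comparison with all arrays in the fit. Each line holds the 250 bases before an annotated start, 5′ to 3′ on the gene's strand. Capitals mark matches to 3 motifs, searched on both strands. The E-box reads CACGTG and is the same on both strands. The GC box was searched as GGGCGG and its reverse complement, CCGCCC. The letters taken for an E2F site were TTTCGCG and their reverse complement. No match overlapped another.
Cdkn2c, first start (chr4:109666757-109667006, minus strand): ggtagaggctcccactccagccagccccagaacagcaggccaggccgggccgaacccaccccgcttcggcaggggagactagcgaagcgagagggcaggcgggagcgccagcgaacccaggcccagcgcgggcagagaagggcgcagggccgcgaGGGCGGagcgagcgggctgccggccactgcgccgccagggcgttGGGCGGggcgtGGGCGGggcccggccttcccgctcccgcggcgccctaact
Cdkn2c, second start (chr4:109665373-109665622, minus strand): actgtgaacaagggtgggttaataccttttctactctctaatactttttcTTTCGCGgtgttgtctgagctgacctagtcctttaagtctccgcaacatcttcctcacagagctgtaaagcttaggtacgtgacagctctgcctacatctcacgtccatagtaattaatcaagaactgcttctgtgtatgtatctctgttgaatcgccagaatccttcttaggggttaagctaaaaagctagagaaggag
Cdk4 (chr10:127063285-127063534, plus strand): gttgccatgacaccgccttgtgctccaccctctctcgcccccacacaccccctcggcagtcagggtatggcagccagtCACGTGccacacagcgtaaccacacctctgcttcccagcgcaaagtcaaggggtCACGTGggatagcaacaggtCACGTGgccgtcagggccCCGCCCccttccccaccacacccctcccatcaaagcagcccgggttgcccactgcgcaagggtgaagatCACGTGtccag
The first Cdkn2c window held 3 GC boxes, and the second held 1 E2F motif, whose first base lies 200 bases before the start. The Cdk4 window held 4 E-boxes and 1 GC box. Of 32851 mouse windows of the same length, 0.703% held the E2F motif, 6.02% an E-box and 32.7% a GC box. In 7 windows (0.0213%) there were 4 or more E-boxes, a cut-off that equals the count found in Cdk4. Windows were found for 7 of the 10 genes. The E2F and E-box motifs were matched in no other window of these genes. A window covers only the bases before an annotated start, which need not be the main start of its gene. The lack of an E2F match, as in the E2f1 window, therefore does not show that a promoter lacks the motif. A match is a description of the letters, not of binding.

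Ccnd1 encodes cyclin D1 and was measured by a pair of probe sets. The brighter probe set (94232_at) read 11330, 8085, 8324, 9973 and 5918 in tumors 22, 24, 26, 50 and 52, and 5194 and 4920 in set B tumors 80 and 81. It read 6045, 3781, 6989 and 3771 in adjacent glands 23, 25, 49 and 51, and 4521, 3811 and 3509 in wild-type pools 40, 41 and 42. All 5 tumors lay above all wild-type pools, both set B tumors lay under all 5 first tumors, and the adjacent glands overlapped with both the tumors and the pools. Tumors were 2.17-fold higher than wild-type gland (log2 difference 1.12 ± 0.24, SE; adjusted p = 0.00212 in limma) and 1.72-fold higher than adjacent gland (0.78 ± 0.22; adjusted p = 0.0234). The second call was lost under 8 of 21 alternatives, among them no filter and the omission of tumor 22 or 50 or of adjacent gland 25 or 51 (0.65 to 0.95; adjusted p up to 0.152 over the 21).

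The dimmer Ccnd1 probe set (94231_at) read 2388, 2275, 1888, 3456 and 2149 in the tumors, and 2324 and 3502 in set B. It read 1690, 1361, 2579 and 1224 in the adjacent glands, and 786, 512 and 666 in the wild-type pools. Here every tumor, every set B tumor and every adjacent gland lay above every wild-type pool. The log2 difference from wild-type gland was 1.88 ± 0.27 in tumors (adjusted p = 7.42e-05 in limma), 2.15 ± 0.34 in set B (adjusted p = 2.87e-04) and 1.35 ± 0.28 in adjacent gland (adjusted p = 0.0329). These 3 comparisons share the wild-type pools. The call in adjacent gland was lost under 13 of 19 alternatives, among them the omission of adjacent gland 23 or 49 or of any of the 3 wild-type pools in turn, with differences of 1.13 to 1.49. The highest adjusted p were 0.615 with lot as a fixed block and 0.868 within lot 2004907, a fit with a single pool.

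The 2 probe sets of Ccnd1 did not give the same calls. In adjacent gland against wild-type gland, 94232_at had a log2 difference of 0.34 ± 0.25 (adjusted p = 0.552 in limma), and in set B against wild-type gland 0.36 ± 0.30 (adjusted p = 0.423). In tumors against adjacent gland, 94231_at had a difference of 0.54 ± 0.25 (adjusted p = 0.181). Both probe sets were called only in tumors against wild-type gland, and no probe set of a gene was called in the opposite direction to another.

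**Figure D1:**
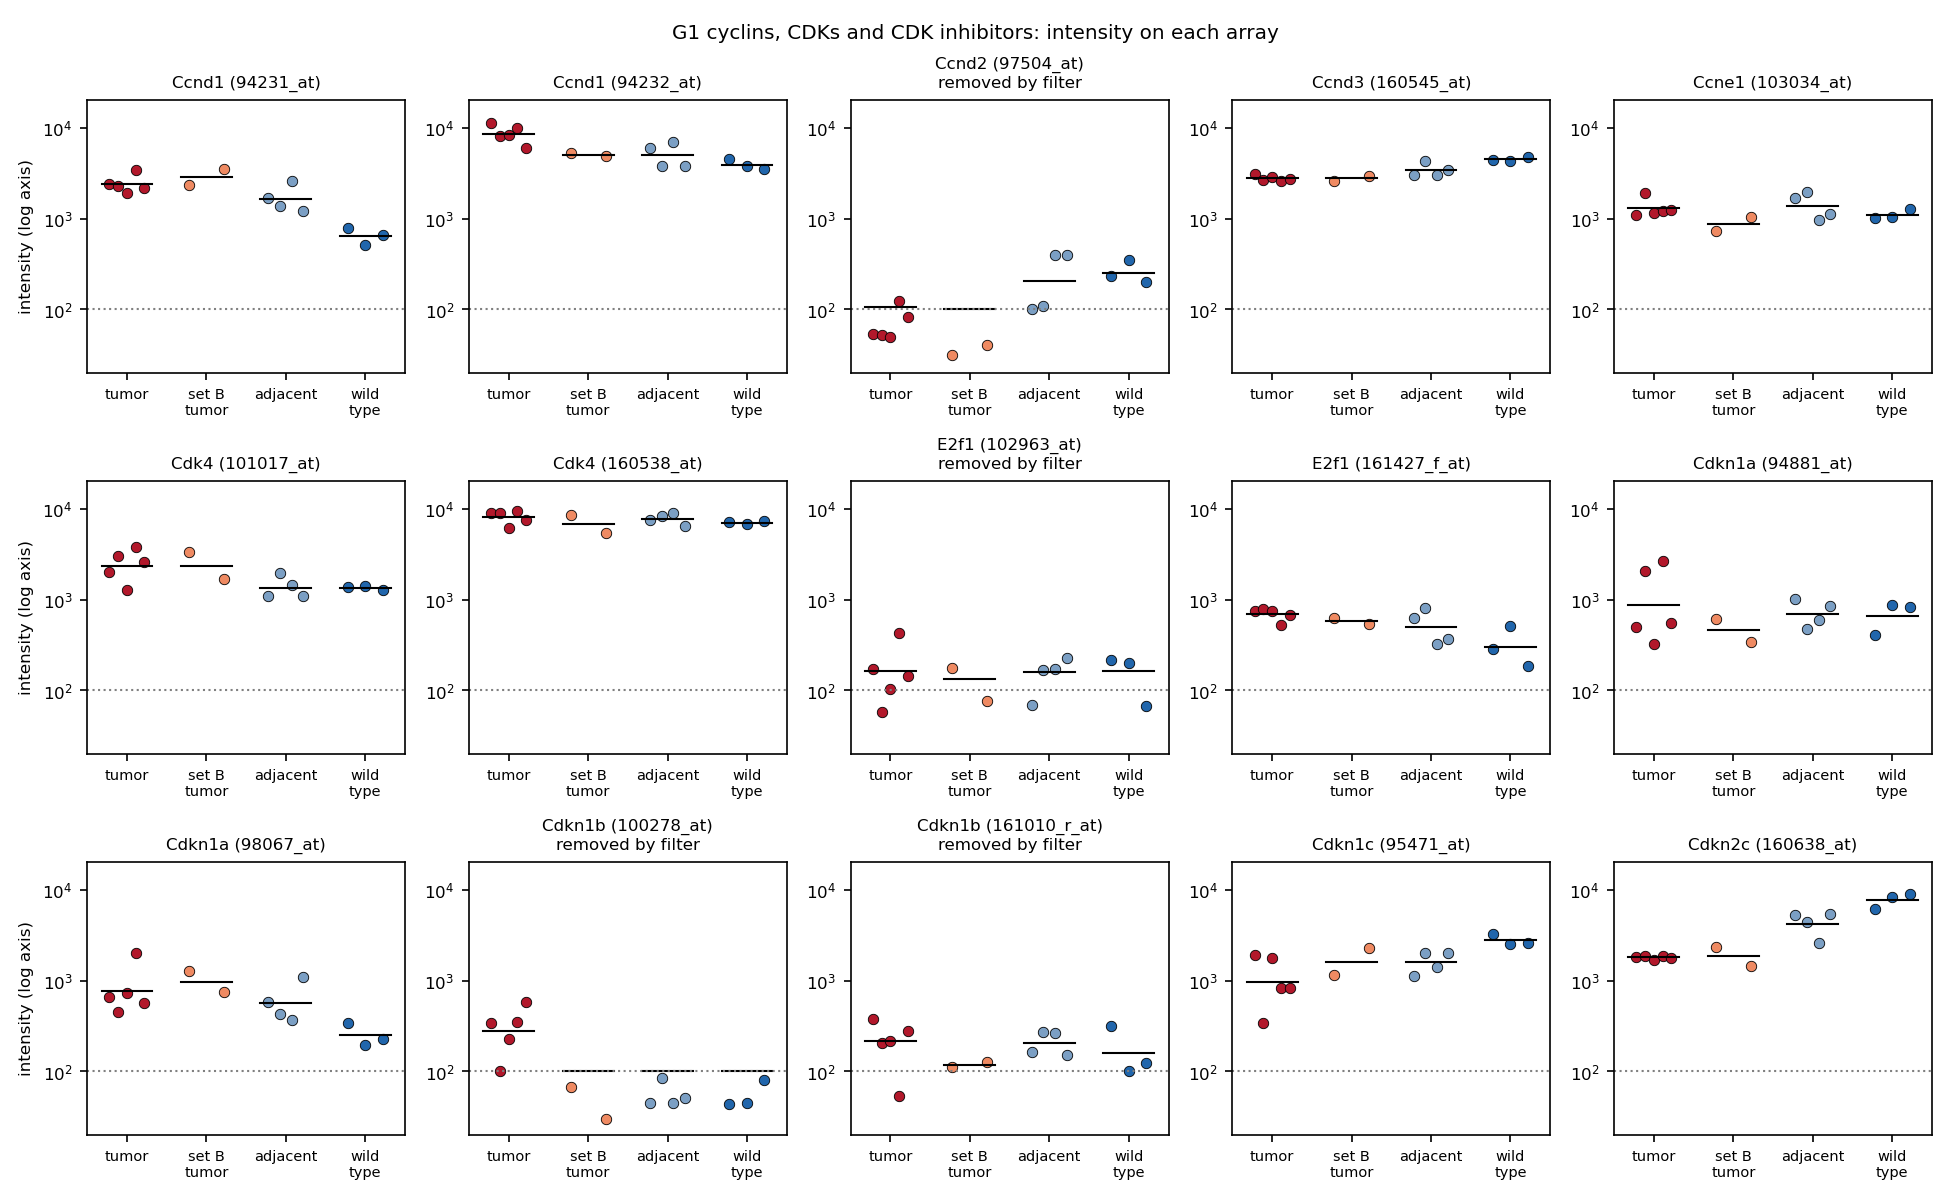
Intensity of the 15 member probe sets on each array (log axis), with tumors, set B tumors, adjacent glands and wild-type pools from left to right; the dotted line is the floor at 101.42 and the bars are means of log2 values after flooring. Cdkn2c lies between 1693 and 1845 in the 5 tumors, under every adjacent gland and every wild-type pool, and Ccnd1 (94231_at) is lowest in the wild-type pools.

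Ccnd2, the gene of cyclin D2, was dim on most arrays. It read 53.3, 52.3, 49.6, 125 and 82.9 in the tumors and 31.4 and 40.8 in set B, so that 4 of 5 tumors and both set B tumors lay under 101.42, the floor to which dimmer values were raised. It read 100, 108, 401 and 394 in the adjacent glands and 233, 348 and 198 in the wild-type pools. All wild-type pools lay above all tumors, and adjacent glands 49 and 51 lay far above adjacent glands 23 and 25. Adjacent glands 23 and 25 shared an array lot with 3 tumors, and adjacent glands 49 and 51 shared one with wild-type pool 40. The part of the lot in this split was not tested. With no filter, limma gave a log2 difference of -1.26 ± 0.45 for tumors against wild-type gland (adjusted p = 0.0749), which takes the floored tumor values as measured.

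Ccnd3, the gene of cyclin D3, read 3057, 2671, 2860, 2568 and 2690 in the tumors and 2604 and 2942 in set B. It read 3044, 4254, 2996 and 3447 in the adjacent glands and 4414, 4317 and 4703 in the wild-type pools. All tumors, set B tumors and adjacent glands lay under all wild-type pools, adjacent gland 25 only just. Ccnd3 was 1.62-fold lower in tumors than in wild-type gland (log2 difference -0.70 ± 0.16; adjusted p = 0.00352 in limma). In set B the fold was also 1.62 (-0.69 ± 0.20; adjusted p = 0.0186), and this call was lost without either set B tumor or without wild-type pool 42 (adjusted p of 0.0607 to 0.138). The difference in adjacent gland was -0.40 ± 0.17 (adjusted p = 0.277).

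Ccne1, the gene of cyclin E1, read 1083, 1895, 1154, 1224 and 1235 in the tumors and 722 and 1044 in set B. It read 1663, 1977, 964 and 1125 in the adjacent glands and 1008, 1027 and 1270 in the wild-type pools. Tumors, adjacent glands and pools overlapped. The 3 highest values, in tumor 24 and adjacent glands 23 and 25, came from a single array lot. The log2 difference between tumors and wild-type gland was 0.24 ± 0.27 (adjusted p = 0.536 in limma), and it was -0.40 with lot as a block.

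Cdk4, the kinase partner of the D-type cyclins, was measured by 2 probe sets that did not behave alike. The brighter one (160538_at) read 8956, 8998, 6117, 9385 and 7488 in the tumors, 8576 and 5379 in set B, 7432, 8360, 8859 and 6489 in the adjacent glands, and 7098, 6711 and 7311 in the wild-type pools. All 4 groups overlapped, and the log2 difference between tumors and wild-type gland was 0.20 ± 0.19 (adjusted p = 0.45 in limma). The dimmer one (101017_at) read 2001, 2978, 1271, 3782 and 2567 in the tumors and 3333 and 1681 in set B. It read 1091, 1964, 1441 and 1088 in the adjacent glands and 1360, 1426 and 1263 in the wild-type pools. All tumors except tumor 26 lay above the wild-type pools, as did both set B tumors and adjacent glands 25 and 49, the second only just. For this probe set the difference between tumors and wild-type gland was 0.81 ± 0.32 (adjusted p = 0.0708), and the unadjusted p was 0.0237. With all arrays in the fit, Cdk4 was called in none of the 5 comparisons by either probe set. Without tumor 26, 101017_at was called in tumors against wild-type gland (1.03; adjusted p = 0.0157) and against adjacent gland (1.03; adjusted p = 0.0196), and without adjacent gland 25 in the second of these (0.98; adjusted p = 0.047).

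E2f1 encodes the E2F factor whose release drives entry into S phase. Its brighter probe set (161427_f_at) read 744, 794, 756, 526 and 676 in the tumors and 634 and 533 in set B. It read 627, 812, 327 and 369 in the adjacent glands and 289, 514 and 188 in the wild-type pools. All tumors lay above all pools, with tumor 50 close to pool 41, and the adjacent glands of the same array lot as 3 tumors (23 and 25) were higher than the adjacent glands of the lot of pool 40 (49 and 51). The log2 difference between tumors and wild-type gland was 1.19 ± 0.37 (adjusted p = 0.0226 in limma). The call was lost under 6 of 19 alternatives, among them lot as a fixed block (0.37; adjusted p = 0.861), lot as a random block (1.06; adjusted p = 0.0599) and the omission of wild-type pool 40 (1.15; adjusted p = 0.0676) or 42 (0.84; adjusted p = 0.143).

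The second E2f1 probe set (102963_at) was removed by the filter. It read 171, 57.4, 105, 433 and 144 in the tumors, 176 and 76.2 in set B, 69.6, 169, 173 and 226 in the adjacent glands, and 218, 203 and 67.6 in the wild-type pools. Each group had 1 array under the floor, and all groups overlapped. With no filter its log2 difference between tumors and wild-type gland was -0.02 ± 0.47, so it did not show the difference seen with 161427_f_at. The suffix _f_at marks a probe set whose oligonucleotides are shared within a sequence family, so the signal of 161427_f_at may not come from E2f1 alone.

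Cdkn2c encodes p18, an INK4 inhibitor of Cdk4 and Cdk6. It read 1834, 1845, 1693, 1841 and 1760 in the 5 tumors and 2353 and 1441 in set B. It read 5199, 4369, 2602 and 5367 in the adjacent glands and 6138, 8241 and 8948 in the wild-type pools. The tumors, the adjacent glands and the pools formed 3 ranges that did not overlap, in that order from low to high, and the set B tumors lay on either side of the first tumors. Within the first tumor group the SD of the log2 values was 0.05, against 0.50 in set B, 0.48 in adjacent gland and 0.29 in wild-type gland.

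Cdkn2c was 4.28-fold lower in tumors than in wild-type gland (log2 difference -2.10 ± 0.24; adjusted p = 7.22e-06 in limma), a call kept under 19 of 20 alternatives. Tumors were 2.35-fold lower than adjacent gland (-1.23 ± 0.22; adjusted p = 9.22e-04), and this call held under all 21 alternatives. Set B was 4.17-fold lower than wild-type gland (-2.06 ± 0.29; adjusted p = 1.32e-04), a call that held under all 14 alternatives. In adjacent gland against wild-type gland the difference was -0.86 ± 0.25, with an adjusted p of 0.1 and an unadjusted p of 0.00302, so this comparison was not called although the ranges did not overlap.

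**Figure D2:**
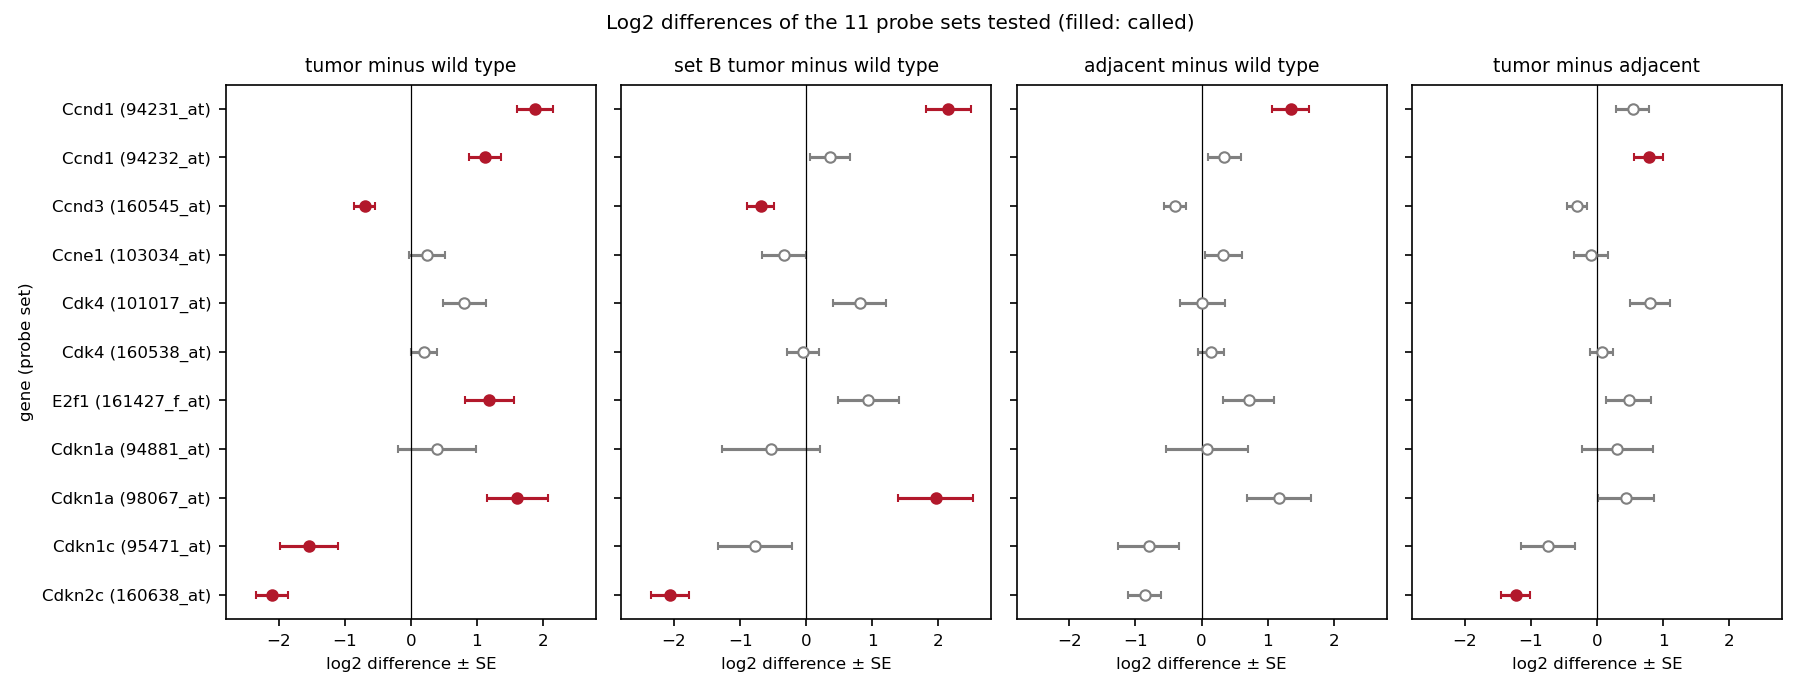
Log2 differences with their standard errors for the 11 member probe sets tested, with 1 panel for each of 4 comparisons; filled points had an adjusted p under 0.05 in limma. Cdkn2c is at -2.10 in tumors, -2.06 in set B and -0.86 in adjacent gland, each relative to wild-type gland, and at -1.23 in tumors relative to adjacent gland; the first 3 panels share the wild-type pools.

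Cdkn1c encodes p57, a Cip/Kip inhibitor expressed from the maternal allele. It read 1890, 344, 1782, 825 and 833 in the tumors and 1146 and 2279 in set B. It read 1126, 2026, 1403 and 2025 in the adjacent glands and 3262, 2530 and 2595 in the wild-type pools. Every tumor, set B tumor and adjacent gland lay under every pool, but the tumors spread widely, with tumors 22 and 26 within the range of the adjacent glands and tumor 24 far under the others. The log2 difference between tumors and wild-type gland was -1.54 ± 0.44 (2.91-fold lower; adjusted p = 0.0159 in limma). Of 20 alternatives, 4 lost the call, among them those with no filter (adjusted p = 0.0531), with lot as a fixed block (-1.48; adjusted p = 0.538) and without wild-type pool 40 (-1.42; adjusted p = 0.064). Neither set B (-0.78 ± 0.56; adjusted p = 0.35) nor adjacent gland (-0.80 ± 0.46; adjusted p = 0.447) was called against wild-type gland.

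Cdkn1a, the gene of p21 and a transcriptional target of p53, was measured by 2 probe sets. The one with the higher mean (94881_at) read 494, 2045, 326, 2678 and 553 in the tumors and 618 and 339 in set B. It read 1002, 472, 594 and 851 in the adjacent glands and 403, 867 and 824 in the wild-type pools. Tumors 24 and 50 lay above every other array, and the other 3 tumors lay within or under the range of the pools. The log2 difference between tumors and wild-type gland was 0.39 ± 0.59 (adjusted p = 0.648 in limma) and -0.02 without tumor 50.

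The other Cdkn1a probe set (98067_at) read 666, 454, 726, 2029 and 572 in the tumors and 1259 and 746 in set B. It read 585, 428, 368 and 1089 in the adjacent glands and 342, 197 and 230 in the wild-type pools. Here every array of a transgenic mouse lay above every pool, and tumor 50 was again the highest tumor while tumor 24 was the lowest. Tumors were 3.05-fold higher than wild-type gland (1.61 ± 0.46; adjusted p = 0.0148 in limma) and set B 3.89-fold (1.96 ± 0.57; adjusted p = 0.021). The tumor call was lost under 5 of 20 alternatives, among them lot as a fixed block (1.16; adjusted p = 0.618) and the omission of pool 41 (1.44; adjusted p = 0.0685) or 42 (1.55; adjusted p = 0.0555). The set B call was lost with no filter, without either set B tumor and without pool 41 or 42 (adjusted p of 0.0527 to 0.184). In adjacent gland the difference was 1.17 ± 0.48 (adjusted p = 0.268). Cdkn1a was counted as not called, by the rule that the brighter probe set stands for the gene.

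Cdkn1b encodes p27, and neither of its probe sets passed the filter. The first (100278_at) read 341, 102, 225, 349 and 583 in the tumors and 68.1 and 29.9 in set B. It read 44.8, 85.2, 45.0 and 50.9 in the adjacent glands and 43.8, 45.0 and 81.3 in the wild-type pools. The 5 tumors were above the floor of 101.42, tumor 24 only just, and all arrays of set B, adjacent gland and wild-type gland were under it. With no filter, tumors were at least 2.72-fold higher than wild-type gland (adjusted p = 0.0314 in limma), which stands at the floor. They were at least 2.72-fold higher than adjacent gland (adjusted p = 0.0383 in limma), which stands there too. After flooring, the SD of the log2 values was 0.94 in tumors and 0.0 in set B, adjacent gland and wild-type gland. The shared spread behind these p-values is therefore too small.

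The second Cdkn1b probe set (161010_r_at) read 376, 205, 219, 53.6 and 282 in the tumors and 111 and 127 in set B. It read 165, 275, 264 and 151 in the adjacent glands and 315, 102 and 124 in the wild-type pools. These groups overlapped, and the suffix _r_at marks a probe set for which some design rules were dropped. With no filter its log2 difference between tumors and wild-type gland was 0.45 ± 0.45 (adjusted p = 0.552 in limma).

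In adjacent gland against wild-type gland, none of the 8 genes was called, where 1.25% of all 6397 genes were called, 0.782% as higher and 0.469% as lower. By probe set, 1 of 11 was called (Ccnd1, 94231_at), against 1.17% of the 8616 probe sets tested, and 4 of 11 had an unadjusted p under 0.05, as had 1273 of the 8616. This split over all probe sets depended on the scaling: 62 were called higher and 39 lower as deposited, and 31 higher and 58 lower after scaling each array to a common median. In tumors against wild-type gland 7 of 11 member probe sets were called, against 29.9% of the 8616. In tumors against adjacent gland 2 of 8 genes were called, Ccnd1 as higher and Cdkn2c as lower, where 15.0% of all genes were called, 5.75% as higher and 9.29% as lower.

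Set B asked whether the tumor values recurred in other tumors. Against wild-type gland 2 of 8 genes were called, Ccnd3 and Cdkn2c, both as lower, where 23.6% of all genes were called, 11.3% as higher and 12.4% as lower. By probe set 4 of 11 were called, which adds the dimmer probe sets of Ccnd1 and Cdkn1a. Set B and the first tumors were set against the same wild-type pools, so their differences from wild-type gland are not independent. Against the first tumors themselves, limma called none of the 8 genes and 0.0% of all genes. At an unadjusted p under 0.05 there was 1 of 11 member probe sets, Ccnd1 (94232_at; -0.75 ± 0.27, adjusted p = 0.378), and 932 of 8616 over the array. Cdkn2c differed between set B and the first tumors by 0.04 ± 0.27.

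Array lots were confounded with the groups in part. Tumors 22, 24 and 26 and adjacent glands 23 and 25 came from lot 2001815, adjacent glands 49 and 51 and pool 40 from lot 2004907, pools 41 and 42 from lot 2003877, tumors 50 and 52 from lot 2004097 and set B from lot 2006609. As numbered, no lot held tumors and wild-type gland together, so with lot as a block their comparison needs the adjacent glands as a link. Lots 2003877 and 2004097 each held 1 group, so their arrays do not enter the size of the difference. It is the difference within lot 2001815 added to that within lot 2004907. For tumors against wild-type gland, the fit with lot as a block thus rests on tumors 22, 24 and 26 and on pool 40 alone. In that fit Cdkn2c had a log2 difference of -2.13 ± 0.49 between tumors and wild-type gland (adjusted p = 0.0289 in limma) and was the only one of the 8 genes called. Ccnd1 had 1.70 (adjusted p = 0.132) by 94231_at and 1.12 (adjusted p = 0.302) by 94232_at, and Ccnd3 had -0.79 (adjusted p = 0.247).

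Within lot 2001815, where 3 tumors can be set against 2 adjacent glands, Cdkn2c differed by -1.41 ± 0.20 (adjusted p = 0.0262 in limma) and Ccnd1 (94232_at) by 0.93 ± 0.27 (adjusted p = 0.152). Within lot 2004907, where 2 adjacent glands can be set against 1 pool, Ccnd1 (94231_at) differed by 1.18 ± 0.58 (adjusted p = 0.868) and Cdkn2c by -0.72 ± 0.54 (adjusted p = 0.881), where the lone pool is assumed to vary like the other group. The numbers 2004097 and 2004907 hold the same digits in another order. If they name 1 lot, which the labels do not say, tumors 50 and 52 can be set against pool 40, in a fit added after the data were seen. That fit has a single wild-type pool, which is assumed to vary like the tumors and adjacent glands of these lots. Within it Cdkn1c differed by -1.98 ± 0.39 (adjusted p = 0.027) and was called, and Cdkn2c differed by -1.77 ± 0.46 (adjusted p = 0.0647) and was not.

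**Figure D3:**
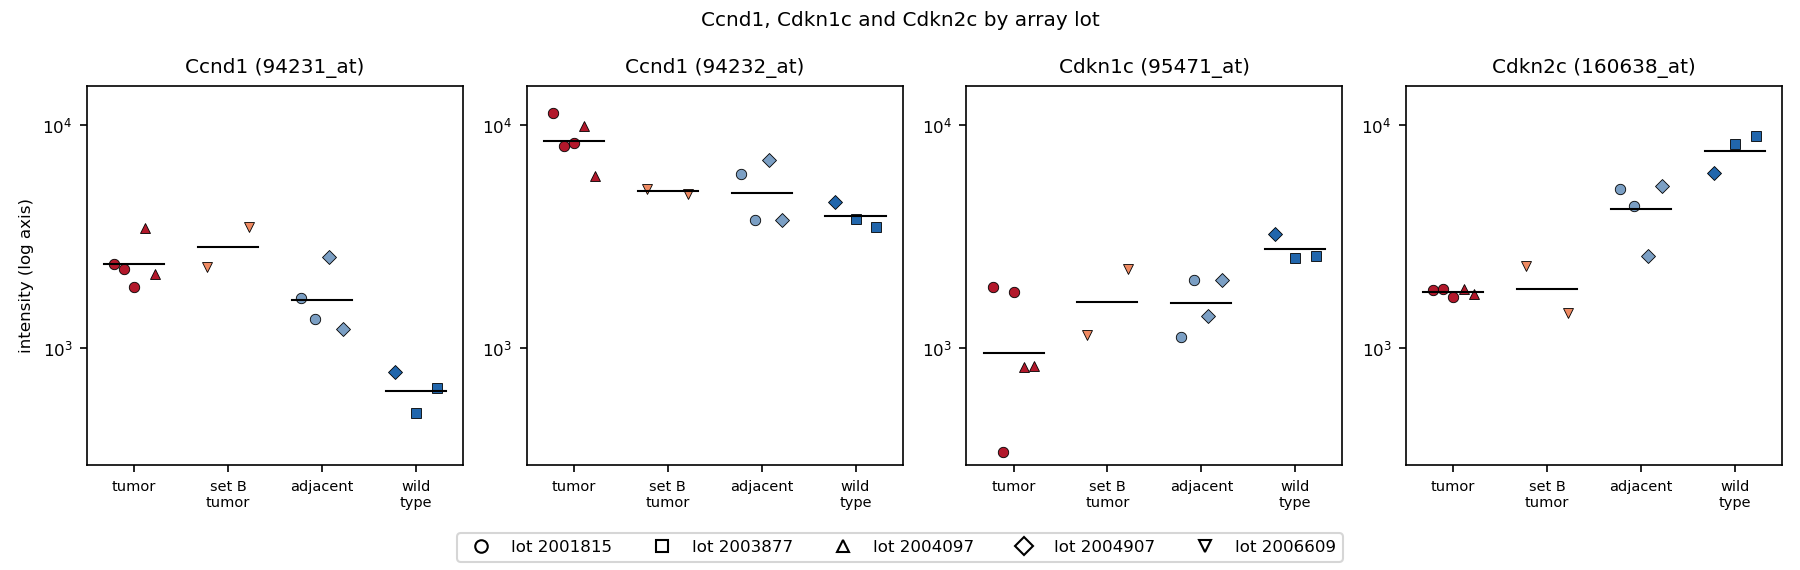
Intensity (log axis) of Ccnd1, Cdkn1c and Cdkn2c on each array, with marker shapes for the 5 array lots and bars for means of log2 values. Tumors and wild-type pools share no lot as numbered; in lot 2001815 the 3 tumors lie under both adjacent glands for Cdkn2c, and in lot 2004907 both adjacent glands lie under the wild-type pool.

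Marker genes of several cell types differed between the groups. In bulk tissue, fewer cells of a type and less RNA per cell cannot be told apart. All 10 measured markers of white adipocytes fell in tumors against wild-type gland (median log2 difference -5.47), and their summed intensity was 4384 to 10197 in tumors, 5438 to 6395 in set B, 91204 to 160117 in adjacent glands and 187466 to 269162 in wild-type pools. The adipocyte markers Plin4 and Cidec were at the floor in every tumor. Of 13 luminal epithelial markers 8 rose and 1 fell in tumors against wild-type gland, with sums of 102694 to 167206 in tumors, 96330 to 138109 in set B, 74605 to 100128 in adjacent glands and 56548 to 63714 in wild-type pools.

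Stromal and basal markers moved with the tumors as well. All 9 fibroblast markers and all 6 tested markers of basal epithelium fell in tumors against wild-type gland, with medians of -3.02 and -2.63, and 7 of 9 endothelial markers fell, with a median of -1.85. Summed fibroblast intensity was 13477 to 37726 in tumors, 16543 to 20607 in set B, 101906 to 182983 in adjacent glands and 126168 to 155221 in wild-type pools. In adjacent gland against wild-type gland, 1 of 10 adipocyte markers fell and 2 of 13 luminal markers rose, while no marker of fibroblasts, basal epithelium or endothelium was called.

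Skeletal muscle markers varied within a group: their sum was 38316 and 47413 in adjacent glands 23 and 25, 4781 and 4644 in adjacent glands 49 and 51, 4930 to 13777 in tumors, 4380 to 5407 in set B and 62998 to 118745 in wild-type pools. Of the 8 muscle markers 6 fell and 1 rose in tumors against wild-type gland (median -4.39). Lymphocyte markers were called in 0 of 3 and macrophage markers in 1 of 5, as lower, in that comparison. The luminal sum and Ccnd1 (94231_at) were both lowest in the wild-type pools. By the brighter Ccnd1 probe set (94232_at), adjacent glands 25 and 51 (3781 and 3771) lay within the range of the pools. The adipocyte sum and Cdkn2c were both low in the 2 tumor groups, intermediate in adjacent glands and highest in the pools. Other sums were low in tumors too, such as the endothelial one: 6177 to 8608 in tumors, 5436 to 7042 in set B, 11751 to 25224 in adjacent glands and 23406 to 29674 in pools. The part of cell type in the values of Ccnd1, Ccnd3, Cdkn1c and Cdkn2c was not tested. RNA controls differed too: the log2 ratio of 3′ over 5′ actin signal was 0.08 to 0.76 in tumors, 0.14 to 0.21 in set B, 0.38 to 1.52 in adjacent glands and 0.90 to 1.51 in wild-type pools, and its part was not tested either.

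**Figure D4:**
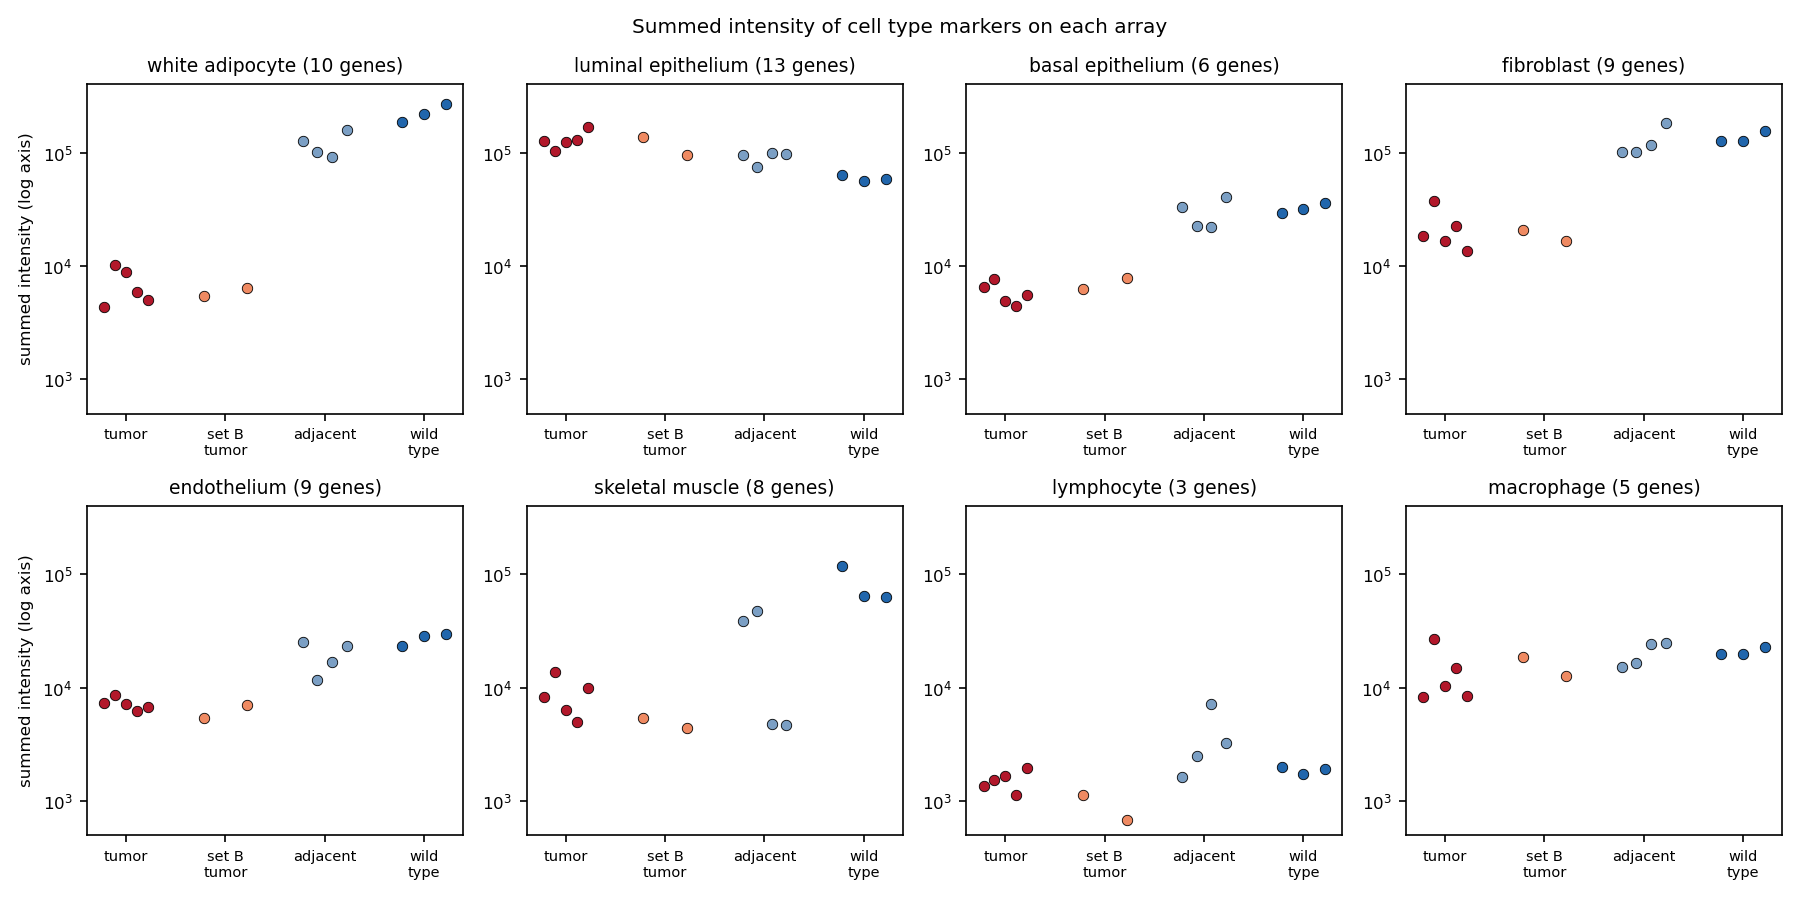
Summed intensity of the measured markers of 8 cell types on each array (log axis), with tumors, set B tumors, adjacent glands and wild-type pools from left to right. Adipocyte sums are at most 10197 in tumors and at least 187466 in wild-type pools, luminal sums are lowest in the wild-type pools, and skeletal muscle sums split the adjacent glands.

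Further genes of the G1/S machinery, beyond the 10, were examined as a list of 28, of which 18 were tested. In tumors against wild-type gland 4 rose and 1 fell, together no larger a share than the 30.6% called over all genes. Of all genes 15.8% were called as higher and 14.7% as lower. The median log2 difference was 0.36, beside 0.13 over all genes. With lot as a block none was called, and the median was -0.18. Skp1 and Fbxw7 encode parts of SCF ubiquitin ligases, complexes that mark cyclin E and CDK inhibitors for degradation. Skp1 averaged 8970 in tumors and 2316 in wild-type gland (1.95 ± 0.28; adjusted p = 7.56e-05 in limma), and Fbxw7 1387 and 395 (1.81 ± 0.31; adjusted p = 3.81e-04). E2f5, a repressive E2F factor, averaged 1095 and 557 (0.98 ± 0.24; adjusted p = 0.00672), and its difference was 0.00 with lot as a block. Cdkn2b, which encodes the INK4 inhibitor p15, averaged 206 and 544 (-1.40 ± 0.51), with an adjusted p of 0.0495 at the edge of the threshold. In tumors against adjacent gland 2 of the 18 rose, Skp1 and Fbxw7, where 15.0% of all genes were called, 5.75% as higher. In adjacent gland against wild-type gland none was called, where 1.25% of all genes were. In set B against wild-type gland 3 rose and 1 fell (Skp1, Fbxw7 and E2f5, and Cdkn2b). Over all genes 23.6% were called there, 11.3% as higher and 12.4% as lower.

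Genes of S phase that E2F factors regulate formed a list of 23, of which 19 were tested. In tumors against wild-type gland 4 rose and none fell. This is a smaller share than the 30.6% of all genes called in either direction, but not smaller than the 15.8% called as higher. The median was 0.56. Rrm2, a subunit of ribonucleotide reductase, averaged 2620 in tumors and 783 in wild-type gland (1.74 ± 0.33; adjusted p = 8.39e-04 in limma). The mitotic kinase gene Cdk1 averaged 3324 and 1590 (1.06 ± 0.25; adjusted p = 0.00387), the thymidine kinase gene Tk1 3416 and 1679 (1.02 ± 0.27; adjusted p = 0.00888), and Rrm1, the other subunit of the reductase, 2041 and 1139 (0.84 ± 0.25; adjusted p = 0.0189). With lot as a block none of the 19 was called, and the median was 0.08. None was called in set B or in adjacent gland against wild-type gland, where 23.6% and 1.25% of all genes were. In tumors against adjacent gland only Pcna was called (0.73 ± 0.23; adjusted p = 0.0457), a gene named after its value was seen. Over all genes 15.0% were called in that comparison.

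Beside Cdkn1a, 6 of 13 listed p53 target genes were tested, and 2 rose and none fell in tumors against wild-type gland. Over all genes 30.6% were called in this comparison, 15.8% as higher and 14.7% as lower. The shares were not compared further, as only 6 genes were tested. Perp, which encodes a desmosome protein, averaged 3827 in tumors and 1074 in wild-type gland (1.83 ± 0.20; adjusted p = 5.27e-06 in limma). Ei24 averaged 7168 and 4666 (0.62 ± 0.19; adjusted p = 0.0208). In the fit that takes lot as a block Perp was also called (1.70; adjusted p = 0.0457), unlike Ei24 (0.39; adjusted p = 0.709). The median of the 6 was 0.28.

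Imprinted genes other than Cdkn1c gave 9 tested of 14 listed, of which 4 fell and 1 rose in tumors against wild-type gland, beside 14.7% lower and 15.8% higher over all genes, with a median of -0.69. The 4 that fell are expressed from the paternal allele, unlike Cdkn1c. Sgce, which encodes a sarcoglycan, averaged 305 in tumors and 4984 in wild-type gland (-4.03 ± 0.32; adjusted p = 1.88e-07 in limma), and Ndn, the gene of necdin, 141 and 2384 (-4.08 ± 0.37; adjusted p = 7.45e-07). Peg3, the gene of a zinc finger protein, averaged 962 and 4455 (-2.21 ± 0.44; adjusted p = 0.00128), and Mest, the gene of a hydrolase-like protein, 127 and 535 (-2.07 ± 0.54; adjusted p = 0.00867). The tumor means of Ndn and Mest lie near the floor, and their differences take floored values as measured. Sgce and Ndn were also called with lot as a block (-3.41 and -3.44). The gene that rose was Igf2r, a receptor that clears Igf2 (1.14 ± 0.19; adjusted p = 2.91e-04), named after its value was seen. It was not called with lot as a block (0.75), nor in set B against wild-type gland (0.61 ± 0.24, adjusted p = 0.0756 in limma). In that set B comparison 5 of the 9 fell and 1 other gene rose, beside 12.4% lower and 11.3% higher over all genes. In adjacent gland none of the 9 was called against wild-type gland, where 1.25% of all genes were.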

How the data were processed

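The authors deposited a table of intensities on a linear scale, with 12488 probe sets as rows and 14 arrays as columns. Which software made them was not given in the sources used here. Trimmed by 2% at either end, the arrays had means between 1500.67 and 1500.9, so the deposited intensities were taken as already scaled and left so. Intensities below the 20th percentile of the whole table (101.42) were raised to that value before log2. Tests left out 66 control probe sets, and a filter on dim signals (over the 40th percentile of an array on 3 arrays or more) took away 3806, leaving 8616.

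A single linear model of the 4 groups was fitted to all arrays with lmFit and eBayes (trend on intensity) of limma 3.58.1 in R 4.3.3, with 10 residual and 5.75 prior degrees of freedom. Tests are two-sided, adjusted after Benjamini and Hochberg over the 8616 probe sets within a comparison. The number of arrays limits the precision. Gene names came from the platform annotation (10855 had 1 gene, 396 several, 1237 none), with 10839 symbols updated by gene number. The fit was tested on simulated data. Alternatives were other floors, filters, scalings, representative probe sets, lot as a block, fits within a lot, and leaving out each array. Members, gene lists and tests were chosen with earlier results of these data known. All members are named, and of each pathway list up to 4 genes called in tumors against wild-type gland, by size of change. The receptor that the transgene encodes is not reported here.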

Additional observations from a re-analysis of the deposited data

Results flagged for a closer look

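Of the 15 member probe sets, each examined in the tumors (n = 5) and the adjacent glands (n = 4), 2 had 1 array far from the rest of its group by Dixon's criterion, which chance alone meets in about 1 of 20 groups. Ccnd2 (97504_at) read 125 in tumor 50, while the other 4 tumors read 53.3, 52.3, 49.6 and 82.9 and were raised to the floor. The gap was then 1.0 of the range, as it would be for any single value above the floor. This flag thus follows from the flooring, and the rate of 1 in 20 does not apply to it. Ccne1 (103034_at) read 1895 in tumor 24, and the gap to the nearest tumor was 0.77 of the range.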

How the results depend on the processing

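The 14 calls of member probe sets were recomputed 256 times under alternatives, and 203 of these values were still called and 53 were not. The number of arrays and the lots limit these results. In tumors against wild-type gland, lot as a fixed block left 1 member gene of 5 and 360 probe sets of 2574, the block with 2 lot numbers taken as 1 left 1 and 921, and the fit within these lots, added after the data were seen, left 1 and 661. Leaving out 1 array gave 3 to 5 member genes, with 3 without wild-type pool 40. Ccne1 turned to -0.40 with the fixed block, and with 1 array left out Cdkn1a (94881_at) ran from -0.02 (without tumor 50) to 0.74. Its difference was 0.82 with the fixed block, 1.38 with 2 lot numbers taken as 1 and 1.59 within these lots, and it was called in none of these fits. In adjacent gland against wild-type gland, the 101 probe sets called became 53 with no filter, 28 with only these 2 groups in the fit, 56 with the fixed block, 26 with 2 lot numbers taken as 1 and 0 within lot 2004907. Leaving out 1 array gave 14 (without pool 42) to 200 (without adjacent gland 51). With the most variable probe set standing for a gene, 1 member gene was called here, 1 in tumors against adjacent gland and 4 in set B against wild-type gland. The share of all genes called under that rule was not computed, so these counts cannot be set against it. In tumors against adjacent gland, 1 member gene of 2 was left with no filter, with only these 2 groups, with the fixed block (597 probe sets of 1239) and within lot 2001815 (209), and leaving out 1 array gave 1 to 2; the gene lost was Ccnd1. In set B against wild-type gland, leaving out 1 array gave 1 to 2 member genes and 1053 to 1664 probe sets of 1998, fewest without set B tumor 81. In set B against the first tumors, the count of 0 probe sets became 1 with no filter and 0 to 3 with 1 array left out, most without tumor 50. There Ccnd1 (94231_at) ran from -0.03 to 0.56 and Cdkn2c from -0.32 to 0.39 with 1 array left out. Lot as a fixed block and fits within a lot could not be computed for set B, which has a lot of its own. Fewer arrays entered the fits within a lot, with only 2 groups and with 1 array left out. Of the other changes the cause was not tested. No paired analysis was possible because the groups share no replicate numbers and the labels do not say which adjacent gland surrounded which tumor.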
